A study of Mus musculus with 6 samples.

Results

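The subject is the proteasome, followed through the genes of its core and regulatory subunits in cultured mouse embryonic fibroblasts (MEFs), the connective tissue cells that grow out of a minced embryo. The members were found by gene symbol alone, as the rows of the deposited table whose symbol begins with Psma, Psmb, Psmc or Psmd and a number, without the interferon-inducible genes Psmb8, Psmb9 and Psmb10. They came to 36 of the 18872 genes in the table, 15 of them with core symbols (Psma and Psmb) and 21 with regulatory symbols (Psmc and Psmd). One of the 36, Psmc3ip, is no proteasome subunit. It encodes a cofactor of meiotic recombination that binds the product of Psmc3. Its own values are given apart from the subunits, but counts, medians and sums over the 36 members include it. All 36 had a mean of at least 10 normalized counts and were tested.

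RNA of 6 MEF cultures on a B6 background was sequenced, 3 labelled SARAF-KO and 3 labelled SARAF-WT, taken at 75% confluency from cells of E14.5 embryo trunks. By the methods of the study, SARAF-KO embryos carry the floxed Saraf allele on both chromosomes and Cre recombinase under the ubiquitous Pgk1 promoter, which removes exon 3. SARAF-WT littermates carry the same floxed allele without Cre, while the sample labels call them wild type. The embryo behind each library is not stated, and the p-values measure the spread between these libraries, which may be technical.

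The recovered reads per library ran from 32799080 to 37979662 in the libraries labelled SARAF-KO (here KO-labelled) and from 24595137 to 32228588 in the libraries labelled SARAF-WT (WT-labelled). Saraf itself had 4497 ± 124 normalized counts in the former and 3328 ± 73.2 in the latter (SD, n = 3), which runs against the labels. A count over the whole gene also holds exons outside the deletion, so it does not show whether the deletion is present. Whether the labels were exchanged was not tested. Directions below follow the labels, and all of them would be reversed if the labels were exchanged. All 8 fibroblast markers were present, with summed normalized counts of 292613 to 295013 in the KO-labelled libraries and 369871 to 377344 in the WT-labelled libraries. Of these 8, 7 were lower and 1 higher in the KO-labelled libraries. All 4 smooth muscle markers were lower, with sums of 4449 to 5171 against 12477 to 16343, and 2 of 3 mesothelial markers were higher, with sums of 4723 to 5122 against 1577 to 1647. The mesothelial sums were nearly all Msln, with means of 4904 and 1562. Wt1 had means of 58.1 and 36.0, and Upk3b, at 2.08 and 3.16, was not tested. The epithelial sums stayed at 105 or less, and Krt18 of that list was lower, with means of 25.5 and 80.5. Of 3 endothelial markers, Kdr was lower, with means of 1187 and 2021, and 2 were not tested. Tubb3 of neurons (1196 and 1024) and Afp of hepatocytes (216 and 178, groups overlapping) were higher. No skeletal muscle or neural crest marker passed. Of all genes tested, 28.2% were higher and 28.0% lower. Of the blood and macrophage markers, Ptprc, the pan-leukocyte marker, had a mean of at most 0.33. Cd68, of the same list, had 363 ± 10.2 normalized counts in the KO-labelled and 381 ± 10.4 in the WT-labelled libraries (SD, n = 3). Its change did not pass (limma adjusted p = 0.36). The part of this cell makeup in the results was not tested, and fewer cells of a type cannot be told apart from less RNA per cell.

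The proteasome is the protease of the cytosol and nucleus that degrades proteins tagged with ubiquitin. Its core is a barrel with outer rings of alpha subunits, which form the gate, and inner rings of beta subunits, of which Psmb5, Psmb6 and Psmb7 carry the catalytic sites. The regulatory particle caps the barrel. Its base unfolds substrates with a ring of ATPases (Psmc1 to Psmc6) and its lid removes the ubiquitin chain. The genes of all these parts are scattered over the chromosomes, and in mammalian cells the transcription factor NRF1, the product of Nfe2l1, is known to raise them together when the proteasome is inhibited.

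The bases just upstream of the start of 5 members are shown, for 3 that rose (Psmb3, Psmd4 and Psmd14) and 2 of chromosome 14 that did not (Psmb5 and Psmc6). These 5 are examples picked with their changes known, and a link of sequence to change was not tested. The sequences are from RefSeq on GRCm38.p6, read 5′ to 3′ on the strand of the gene, and end at the base before the start of the gene in RefSeq or GENCODE, whichever lies further upstream. Capitals mark matches, on either strand, to CCAAT (the CCAAT box), CCGGAAG (an ETS factor motif) and TGACNNNGC (an antioxidant response element, the kind of site that NRF1 binds). No one of the 3 motifs contains another.
Psmb3, chr11:97703184-97703398, plus strand: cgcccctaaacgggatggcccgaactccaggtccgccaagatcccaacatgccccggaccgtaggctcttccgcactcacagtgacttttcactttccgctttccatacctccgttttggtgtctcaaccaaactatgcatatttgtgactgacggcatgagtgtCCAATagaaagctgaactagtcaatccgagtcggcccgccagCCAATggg
Psmd4, chr3:95042615-95042864, minus strand: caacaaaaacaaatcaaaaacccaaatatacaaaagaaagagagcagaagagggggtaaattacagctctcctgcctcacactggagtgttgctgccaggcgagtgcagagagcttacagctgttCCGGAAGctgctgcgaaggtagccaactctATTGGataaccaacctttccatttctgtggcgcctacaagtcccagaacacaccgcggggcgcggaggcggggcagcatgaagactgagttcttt
Psmd14, chr2:61711444-61711693, plus strand: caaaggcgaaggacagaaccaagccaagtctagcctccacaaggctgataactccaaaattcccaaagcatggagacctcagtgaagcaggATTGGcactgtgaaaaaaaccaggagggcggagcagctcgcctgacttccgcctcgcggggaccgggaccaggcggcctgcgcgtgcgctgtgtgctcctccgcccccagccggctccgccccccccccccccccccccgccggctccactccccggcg
Psmb5, chr14:54618023-54618245, minus strand: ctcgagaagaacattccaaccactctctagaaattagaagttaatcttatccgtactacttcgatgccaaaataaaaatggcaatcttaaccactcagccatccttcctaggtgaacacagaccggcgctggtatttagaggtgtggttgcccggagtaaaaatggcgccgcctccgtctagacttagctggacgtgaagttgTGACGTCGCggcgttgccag
Psmc6, chr14:45329574-45329787, plus strand: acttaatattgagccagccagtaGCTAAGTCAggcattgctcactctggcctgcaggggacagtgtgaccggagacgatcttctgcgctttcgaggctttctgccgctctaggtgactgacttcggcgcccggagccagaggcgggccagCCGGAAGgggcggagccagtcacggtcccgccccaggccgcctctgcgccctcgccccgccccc

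RefSeq promoters were matched for 30 of the 36 members and searched over the 250 bases upstream of each start. CCGGAAG was found in 10 of the 30 (33.3%), against 7.83% of 27025 genes with a promoter and 14.8% of the 10558 of those that were tested. CCAAT was found in 13 (43.3%, against 37.5% and 40.6%). TGACNNNGC was found in 5 (16.7%, against 11.5% and 13.9%), of which Psmb6, Psmd9 and Psmd12 rose, Psmc6 fell and Psmb5 did not pass. These are matches of letters, counted without a test. The ETS motif stood before members that rose (Psmd2, Psmd4, Psmd11, Psmd12, Psma6, Psmc1, Psmc2), one that fell (Psmc6) and ones that did not pass (Psmd6, Psmc3ip).

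RNA of most proteasome genes was more abundant in the KO-labelled than in the WT-labelled libraries, by a modest amount that differed between members. Of the 36 members, 30 were higher and 1 was lower at an adjusted p under 0.05 from limma, while 28.2% of all 13986 genes tested were higher, 28.0% lower and 56.2% changed in either direction. Among genes with a mean of at least 1000 normalized counts, the range of most members, 35.3% were higher. In each of the 30, every KO-labelled library lay above every WT-labelled library, which held for 30.9% of all genes tested. In the member that was lower, Psmc6, the groups were apart in the other direction, as for 30.5% of all genes tested. The median log2 change of the 36 members was 0.22, beside a median of 0.00 over all genes tested, whose central 90% ran from -0.70 to 0.53. The 30 members that rose did so by 9.04% to 37.98% (median 18.1%), and 17 of them had a log2 change between 0.2 and 0.3. The SD of the log2 change over these 30 was 0.08, beside SEs of 0.02 to 0.05 for single members. On reads recovered from the table, edgeR and DESeq2 likewise called 30 members higher, where they called 28.5% and 20.8% of all genes with an adjusted p higher.

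**Figure D1:**
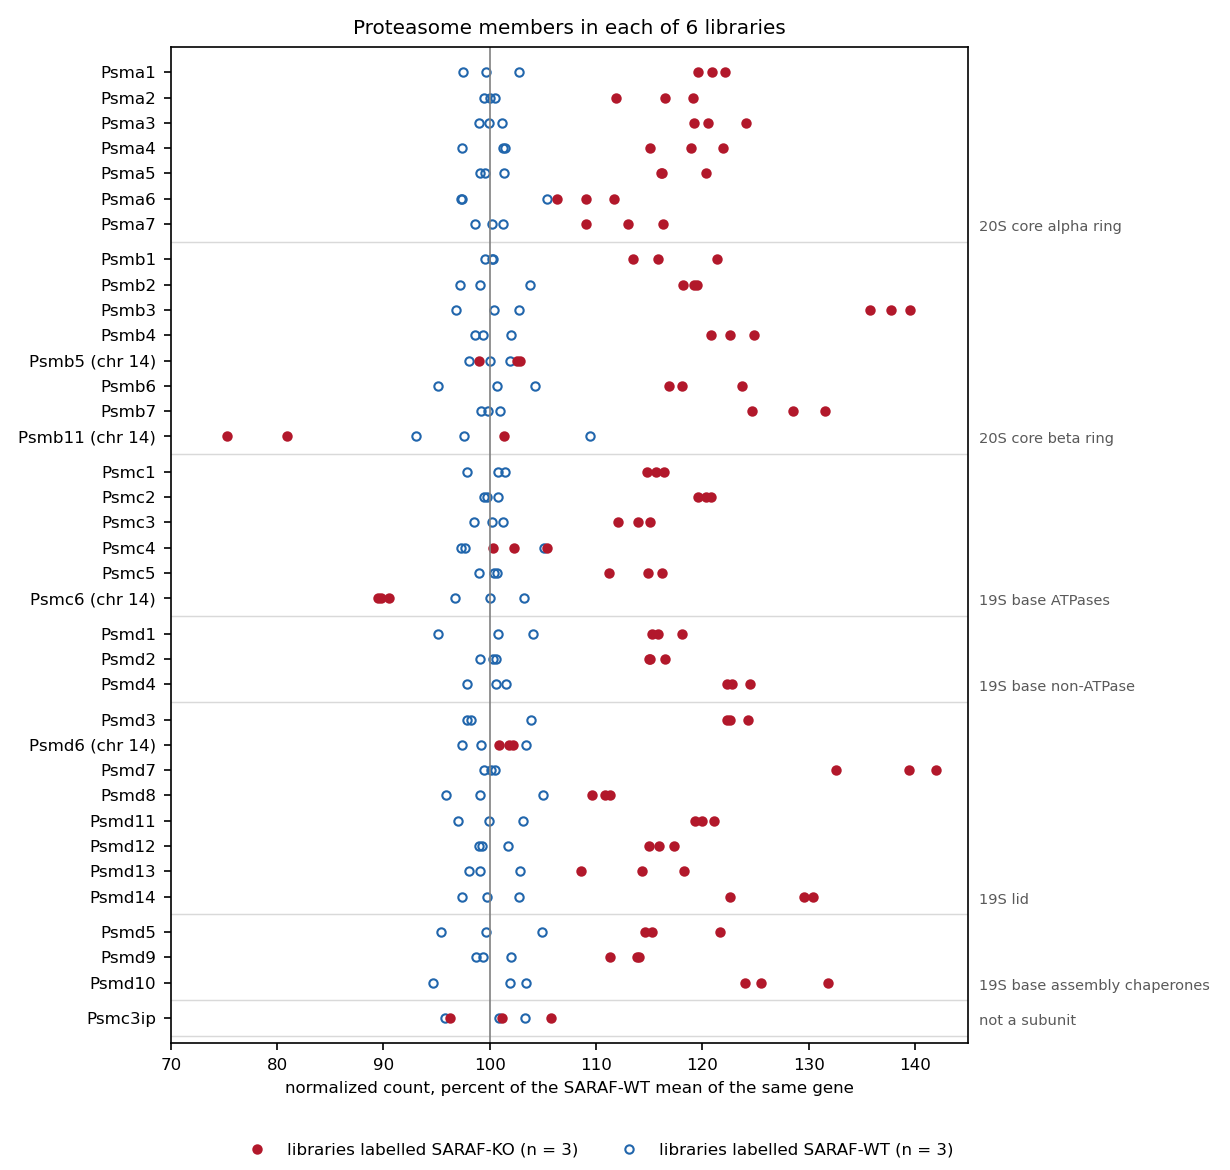
Normalized count of each of the 36 members in the 6 libraries, as a percent of the mean of the 3 WT-labelled libraries for the same gene (filled points, SARAF-KO; open points, SARAF-WT), grouped by sub-complex. In 30 members the filled points lie to the right of all open points, and in Psmc6 they lie to the left.

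Added over the 36 members, Psmc3ip included, their RNA made up 0.495%, 0.506% and 0.498% of the recovered reads in the KO-labelled libraries and 0.426%, 0.425% and 0.423% in the WT-labelled libraries. The groups were apart, and the sum of normalized counts was 17.2% larger in the former. Psmd2 is the member with the most reads, and without it the difference was 17.4%. The summed core members were 19.1% and the summed regulatory members 16.2% larger. Among the KO-labelled libraries, replicates differed in how often they ranked first. SARAF-KO replicate 2 was the highest of its 3 libraries for 27 of the 36 members and replicate 1 the lowest for 24, though their median distances from the group mean were only 0.02 and -0.01 on the log2 scale. The WT-labelled libraries were more even, being the highest for 17, 12 and 7 members and the lowest for 10, 10 and 16. Over the members other than Psmb11, the coefficient of variation among 3 libraries had a median of 2.03% in SARAF-KO and 2.30% in SARAF-WT. The highest values were 4.73% in SARAF-KO (Psmc3ip) and 4.72% in SARAF-WT (Psmd5). Rises of 10% to 20% were larger than these values, which describe libraries that may be technical replicates.

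All 7 alpha subunits in the table rose, with log2 changes from 0.13 to 0.28 (median 0.23). The alpha ring holds the gate through which substrates enter the core. Psma3 had 5028, 5234 and 5085 normalized counts in the KO-labelled libraries and 4173, 4265 and 4215 in the WT-labelled libraries. The groups were apart by 21.3% (log2 change 0.28, SE 0.03, limma adjusted p = 3.5e-09). Psma1 rose by 20.9%, Psma4 by 18.6%, Psma5 by 17.5%, Psma2 by 15.8% and Psma7 by 12.8%. Psma6 had the smallest change of the ring and of all 30, with 3479, 3564 and 3393 against 3104, 3361 and 3107 normalized counts. Its groups were narrowly apart, SARAF-KO replicate 3 lying just above SARAF-WT replicate 2 (9.04%, limma adjusted p = 0.0022). Psma8, an alpha subunit of the testis, was not analysed here.

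Of the 8 beta genes 6 rose, and the catalytic subunits parted. Psmb7, with the trypsin-like site, had 4800, 5064 and 4947 normalized counts in the KO-labelled libraries and 3889, 3818 and 3846 in the WT-labelled libraries. Its groups were well apart, with a rise of 28.2% (log2 change 0.36, SE 0.03, limma adjusted p = 6.2e-11). Psmb6, with the caspase-like site, had 3953, 4141 and 3913 against 3369, 3185 and 3489. It rose by 19.6% (log2 change 0.26, SE 0.03, limma adjusted p = 3.3e-07). Psmb5, with the chymotrypsin-like site that the drug bortezomib blocks, had 2012, 2018 and 1942 against 2000, 1923 and 1963. Its groups overlapped (log2 change 0.02, 95% interval -0.05 to 0.09, limma adjusted p = 0.62), and the upper bound of 0.09 lay under the smallest rise among the 30 members.

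Among the beta subunits without a catalytic site, Psmb3 changed most. It had 3369, 3460 and 3417 normalized counts in the KO-labelled libraries and 2550, 2403 and 2491 in the WT-labelled libraries, a rise of 37.7% (log2 change 0.46, SE 0.03, limma adjusted p = 3.2e-12). Psmb4 rose by 22.7%, Psmb2 by 18.96% and Psmb1 by 16.9%. The last beta gene, Psmb11, encodes the catalytic subunit of the thymus. It was near the floor of the table at 51.8, 38.5 and 41.4 against 47.6, 56.0 and 49.9 normalized counts, and its groups overlapped (log2 change -0.22, 95% interval -0.59 to 0.14, limma adjusted p = 0.29).

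The ring of ATPases in the base divided. Psmc2 was the most abundant, with 10083, 10186 and 10149 normalized counts in the KO-labelled libraries and 8499, 8411 and 8391 in the WT-labelled libraries. The 3 libraries of each group lay close together and far from the other group (20.2%, log2 change 0.27, SE 0.02, limma adjusted p = 7.1e-10). Psmc1 rose by 15.6%, Psmc5 by 14.1% and Psmc3 by 13.7%. Psmc4 had 3970, 4171 and 4049 against 4160, 3866 and 3851. SARAF-WT replicate 1 reached into the other group, and the change did not pass (log2 change 0.04, 95% interval -0.03 to 0.10, limma adjusted p = 0.32). Without that library it was 0.07 (limma adjusted p = 0.026). Psmc6 had 2725, 2757 and 2733 against 3045, 3144 and 2947. It was lower in each KO-labelled library and fell by 0.15 on the log2 scale (SE 0.03, limma adjusted p = 0.00016), the one member called lower.

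All 3 non-ATPase members of the base rose. Psmd2, a scaffold that docks ubiquitin-like domains, had 14862, 15055 and 14870 normalized counts against 13007, 12809 and 12960, a rise of 15.5%. Psmd1, the other large scaffold, rose by 16.4%. Psmd4, a receptor for ubiquitin chains, had 4899, 4918 and 4986 against 3921, 4027 and 4068 and rose by 23.2% (log2 change 0.30, SE 0.03, limma adjusted p = 8.5e-10). Both regulatory subunits analysed outside the symbol rule also rose. Adrm1, another ubiquitin receptor, rose by 14.1%, and Shfm1, now named Sem1, a small subunit that tethers the lid, rose by 13.9%.

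In the lid 7 of 8 members rose. Psmd14 is the deubiquitinase that cuts the chain from the substrate, and Psmd7 is the subunit it pairs with. Psmd7 had the largest log2 change of all members, with 5587, 5874 and 5985 normalized counts in the KO-labelled libraries and 4220, 4233 and 4190 in the WT-labelled libraries. Even its lowest KO-labelled library was far above all 3 WT-labelled ones (37.98%, log2 change 0.46, SE 0.03, limma adjusted p = 6.0e-13). Psmd14 had 3019, 3211 and 3190 against 2400, 2458 and 2532 and rose by 27.5% (log2 change 0.35, SE 0.03, limma adjusted p = 1.6e-09). The lid scaffolds followed with smaller rises. Psmd3 rose by 23.1%, Psmd11 by 20.1%, Psmd12 by 16.1%, Psmd13 by 13.7% and Psmd8 by 10.6%. Psmd6 had 1610, 1614 and 1594 against 1540, 1635 and 1567, and its groups overlapped (log2 change 0.02, 95% interval -0.05 to 0.10, limma adjusted p = 0.60).

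Psmd5, Psmd9 and Psmd10 are chaperones that help assemble the base and leave before it is complete. All 3 rose. Psmd10, also known as gankyrin, lies on chromosome X and had 1055, 1109 and 1043 normalized counts against 796, 870 and 857 (27.1%, log2 change 0.35, SE 0.05, limma adjusted p = 6.2e-07). Psmd5 rose by 17.2% and Psmd9 by 13.1%. Psmc3ip, the member that is no subunit, had 598, 658 and 629 against 596, 627 and 642. Its groups overlapped (log2 change 0.02, 95% interval -0.10 to 0.13, limma adjusted p = 0.83).

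**Figure D2:**
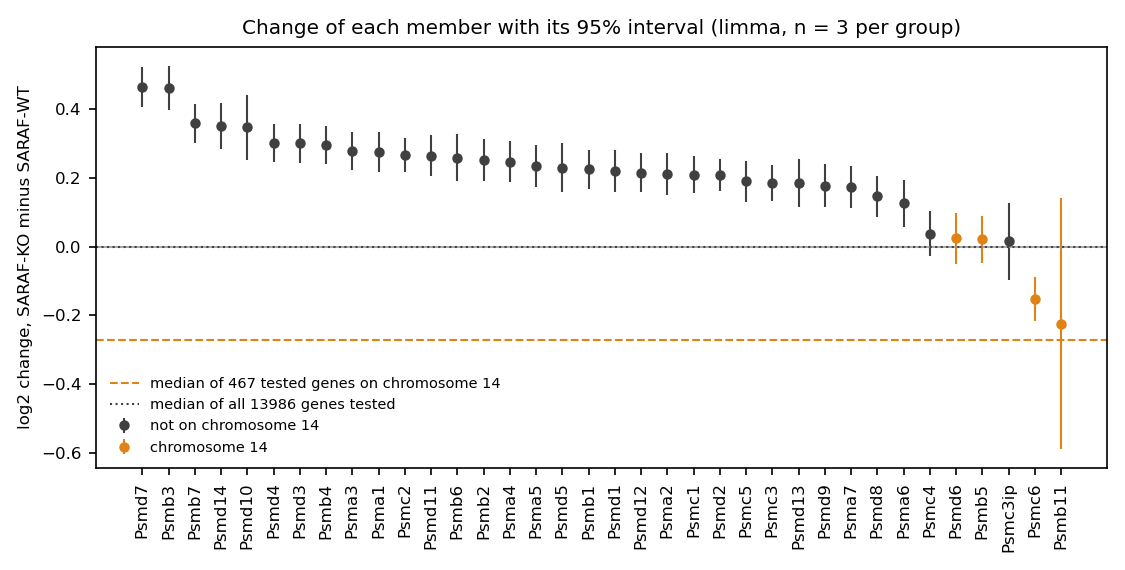
Log2 change of each member, KO-labelled libraries minus the WT-labelled libraries, with its 95% interval from limma (n = 3 per group), ordered by size. The 4 members on chromosome 14 (orange) lie at the low end, above or near the median of that chromosome (dashed, -0.27), while 30 of the other 32 lie above 0.1.

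Of the 6 members that were not called higher, 4 shared a chromosome. Psmd6, Psmc6, Psmb5 and Psmb11 lie on chromosome 14 of GRCm38, and none of the 4 was higher. Off that chromosome, 30 of 32 members were higher, the exceptions being Psmc4 on chromosome 7 and Psmc3ip on chromosome 11. Of the 467 genes of chromosome 14 that were tested, 10.7% were higher and 63.0% lower, with a median log2 change of -0.27. Psmb5 spans 54614119 to 54618022 on the minus strand in 3 exons, and Psmb11 is its neighbour. Of 59 other genes tested within 2 Mb of Psmb5, 49 were lower and 3 higher, with a median log2 change of -0.33, beside 0.02 for Psmb5. Psmc6 spans 45329788 to 45349705 on the plus strand. Of 18 genes within 2 Mb, 11 were lower and 1 higher (median -0.22, beside -0.15 for Psmc6). Psmd6 spans 14112174 to 14120984 on the minus strand, with 4 of 6 neighbours lower and none higher (median -0.18, beside 0.02 for Psmd6). Each of these 3 subunits thus had a higher log2 change than the median of its neighbours. The part of the chromosome in their values was not tested.

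Between genes, levels were compared per transcript length, as TPM, in which the normalized count is divided by the length of 1 principal GENCODE transcript a gene and scaled to the same total in every library. Subunits of the complex differed several-fold in RNA. Psmc2 was highest with 421 ± 2.31 TPM in the KO-labelled libraries and 360 ± 0.84 in the WT-labelled libraries (SD, n = 3), followed by Psmd2 with 373 ± 1.60 and 333 ± 1.62. The catalytic subunits were unequal, with Psmb6 at 372 ± 9.75 and 320 ± 14.2 TPM and Psmb7 at 315 ± 7.91 and 253 ± 0.90. Psmb5 was lower than both, at 164 ± 2.83 and 166 ± 2.32 TPM. Psmd6 was among the lowest subunits of the finished complex at 85.8 ± 0.22 and 86.8 ± 3.15, beside Psmd11 at 101 ± 1.11 and 86.3 ± 2.24. The chaperones Psmd10 and Psmd5 lay below both at 55.4 ± 1.58 and 51.9 ± 1.54 TPM in the KO-labelled libraries, and Psmb11 was at 0.77 ± 0.12 and 0.92 ± 0.08. Neighbours in the order were mostly not separable. In only 10 of 35 steps did all libraries of a member lie above those of the next member in both groups. Long annotated transcripts, as for Psma2 (2911 bases) and Psma3 (2846 bases), lower these values if a shorter form is the one transcribed.

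**Figure D3:**
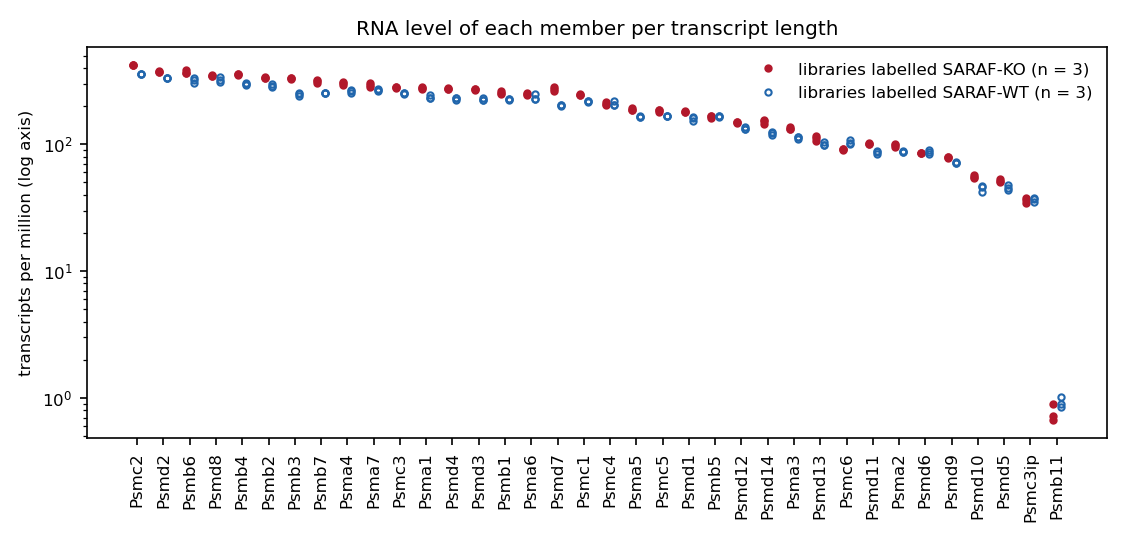
TPM of each member (log axis) in the 3 KO-labelled libraries (filled) and the 3 WT-labelled libraries (open), ordered by mean. Apart from Psmb11 at under 1.1, levels run from 36.1 for Psmc3ip to 421 for Psmc2 in the means of SARAF-KO.

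The inducible catalytic subunits went the other way. Psmb8, Psmb9 and Psmb10 take the places of Psmb5, Psmb6 and Psmb7 in the immunoproteasome, and all 3 were called lower in the KO-labelled libraries by limma, with differences of -31.6%, -43.1% and -24.9% and no overlap between groups. Of all genes tested, 28.0% were called lower, and 30.5% had every KO-labelled library below every WT-labelled library. The ratio of Psmb10 to Psmb7 counts was 0.174, 0.153 and 0.149 in the KO-labelled libraries and 0.272, 0.275 and 0.265 in the WT-labelled libraries. That of Psmb8 to Psmb5 was 0.706, 0.669 and 0.738 against 0.960, 1.09 and 1.09, and that of Psmb9 to Psmb6 was 0.0243 ± 0.00118 against 0.0513 ± 0.00859 (SD, n = 3). In all 3 pairs the groups were apart (two-sided exact permutation test on the log2 ratio, p = 0.1 for each of the 3 pairs, the smallest p that 3 against 3 libraries can give).

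Other genes of the pathway were taken from written lists, whose counts stand beside the 28.2% of all genes tested, and 35.3% of those with a mean of at least 1000, that were higher. The share of all genes tested that were lower was 28.0%. The lists are short and their counts were not tested. Of 5 chaperones that assemble the core, 4 rose and none fell. Pomp, the maturation factor of the beta rings, rose by 19.9% (log2 change 0.26, SE 0.03, limma adjusted p = 1.6e-08), Psmg1 by 13.96%, Psmg3 by 19.3% and Psmg4 by 26.0%, while Psmg2 had a log2 change of 0.08 and did not pass (limma adjusted p = 0.13). The activators, alternative caps of the core, divided. Psme1 and Psme2, the interferon-inducible pair that forms PA28 alpha-beta, fell by 0.61 and 0.66 on the log2 scale. Both lie on chromosome 14. Psme3, the nuclear PA28 gamma, rose by 26.4%, and Psme4, which encodes PA200, by 22.1%. Psmf1, the proteasome inhibitor PI31, fell by 0.24 on the log2 scale.

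Among enzymes bound to the proteasome, 3 of 5 rose, again beside 28.2% of all genes tested. Usp14, a deubiquitinase that trims chains on the base, had 4168, 4377 and 4398 normalized counts against 2994, 3065 and 2882. This rise of 44.8% (log2 change 0.53, SE 0.03, limma adjusted p = 2.2e-13) was larger than that of any member. Uchl5, the deubiquitinase held by Adrm1, rose by 16.1% and the ligase gene Ube3c by 6.91%, whereas Ube3a and Huwe1 did not pass (log2 changes 0.01 and 0.04). Of 6 shuttle factors that carry ubiquitinated proteins to the base, 4 rose, among them Rad23b by 12.1%, Ubqln1 by 10.9% and Ubqln4 by 8.86%. Of 7 genes in the table for the VCP unfoldase and its cofactors, 4 rose and 1 fell. Vcp itself rose by 23.3% (log2 change 0.30, SE 0.02, limma adjusted p = 7.3e-11), Ubxn1 by 9.61%, Nploc4 by 8.31% and Ufd1l by 9.85%, and Faf2 fell by 0.08 on the log2 scale.

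Of 10 genes of the NRF1 pathway, 3 were higher and 2 lower, shares near those of all genes tested (28.2% higher, 28.0% lower). Nfe2l1 had 9894, 9719 and 9733 normalized counts against 9390, 9242 and 9249. Its rise of 5.25% passed (log2 change 0.07, SE 0.02, limma adjusted p = 0.010), with no overlap between groups. Maff and Mafk, small partner proteins of these factors, rose by 25.9% and 9.33%. Mafg, another such partner, had a log2 change of -0.08 and did not pass (limma adjusted p = 0.074), though its KO-labelled libraries all lay below the WT-labelled ones. Ngly1, the glycanase that processes the NRF1 protein, fell by 0.34 on the log2 scale and lies on chromosome 14, and Sel1l, of the machinery that exports proteins from the endoplasmic reticulum, fell by 0.20. Ddi2, the protease that cleaves NRF1, and Nfe2l2 had log2 changes of -0.02 and -0.04 and did not pass. Of 10 genes for ubiquitin and its activation, 7 rose and 1 fell. Rps27a, which encodes ubiquitin fused to a ribosomal protein, rose by 10.3%. Ubb, a polyubiquitin gene, had a log2 change of 0.01 and did not pass (limma adjusted p = 0.81). Uba1, the main activating enzyme, rose by 10.2% and Ube2d1, a conjugating enzyme, by 17.6%.

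**Figure D4:**
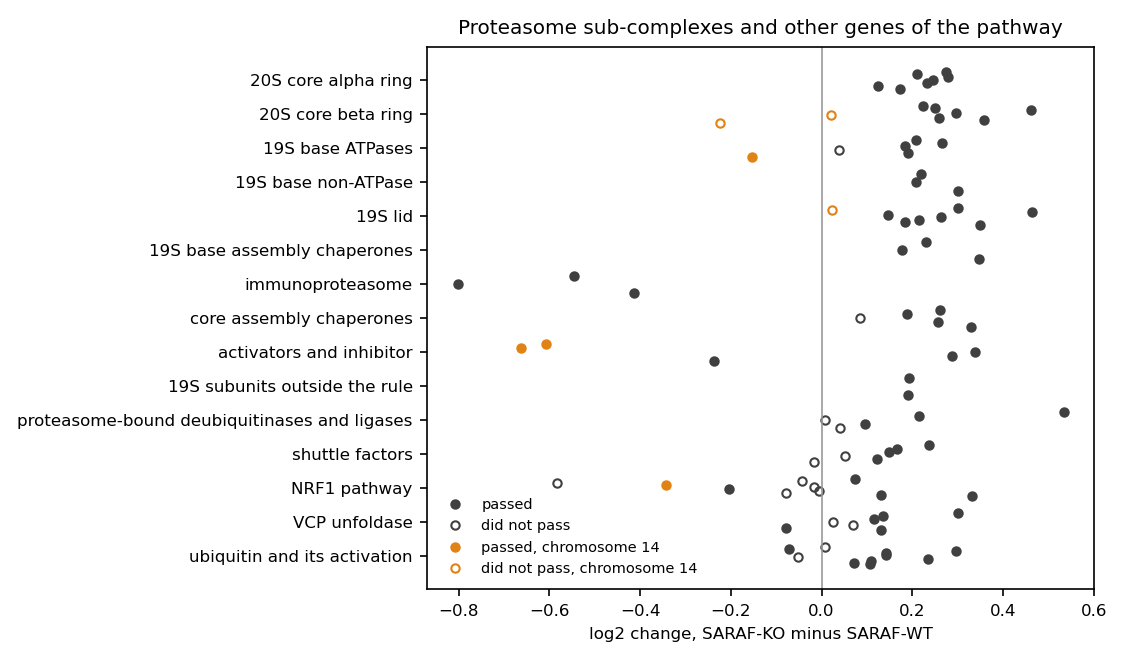
Log2 change, KO-labelled libraries minus the WT-labelled libraries, of each tested gene of 15 lists (filled points passed at an adjusted p under 0.05 from limma, open points did not; orange, chromosome 14). 20S is the core and 19S the regulatory particle. The 6 rows of proteasome sub-complexes at the top lie mostly between 0.1 and 0.5, the 3 immunoproteasome genes lie below -0.4, and the NRF1 pathway lies on both sides of 0.

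Some counts may hold reads of other genes. The library kit does not mark strand, and exons of Psmb7, Psmc3, Psmd13, Psma4 and Psmc3ip overlap those of a gene on the opposite strand that was tested. For Psmb7 that gene is Nek6, a kinase gene with a log2 change of 0.16, under the 0.36 of Psmb7. For Psmc3ip it is Mlx (log2 change 0.20), for Psma4 AY074887 (0.31), for Psmc3 Slc39a13 (0.01) and for Psmd13 Sirt3 (0.02). GENCODE also names processed pseudogenes of Psmb5, Psmb6 and Psmb7, which can share reads with their parents.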

How the data were processed

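RNA of MEF cultures was sequenced from 6 TruSeq v2 libraries. The authors aligned the reads to GRCm38 using TopHat 2.0.10, obtained gene counts through HTSeq and scaled them in DESeq2. HTSeq settings and the DESeq2 version were not given in the sources used here. As deposited, the values are a signal, namely gene counts over a size factor per library. Fold changes and p-values of the authors' own comparison stand in the same table and were not used. Every value (100%, relative tolerance 1e-06) was a whole multiple of the worth of 1 read, which gave the recovered reads.

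The test was limma 3.58.1 in R 4.3.3, with a variance trend, applied to log2(normalized count + 1) of genes averaging 10 or more, with Benjamini-Hochberg adjustment over all of them and a threshold of 0.05. A fold change on this scale is understated for low genes. Alternatives were edgeR 4.0.16 and DESeq2 1.42.0 on recovered reads, 2 scalings, 2 pseudocounts, 2 filters, a threshold of 0.01, a replicate block, leaving out each library and leaving out the members on chromosome 14. Positions and lengths came from GENCODE M21 on GRCm38 (98.9% of symbols matched). The length is that of the transcript with the best APPRIS rank, then support level, then lowest number. The script was tested on simulated data for the same comparison (13974 genes), and recovered 96% of genes changed 1.25-fold and 100% of those changed 1.5-fold or more. Only 200 genes with a mean of at least 50 were changed there, far fewer than were called in the real data. Rises under 1.25-fold, such as the median 18.1% of the members that rose, were not simulated.

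Members and lists were chosen with earlier results of these data known. The text names every member. It gives library values for the catalytic subunits, members on chromosome 14, Psmc3ip, and the members with the largest changes and smallest p. Some further members (Psma3, Psma6, Psmc4, Psmd2, Psmd4 and Psmd10), Usp14 and Nfe2l1 also have library values, and genes overlapping members are named, a choice made after the values were seen. Of each other list, up to 4 genes with the smallest p are named, besides some that did not pass. A few genes of these lists are counted but not reported by name here.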

Additional observations from a re-analysis of the deposited data

How the results depend on the processing

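The count of 30 members called higher was the same in 15 of the 16 settings other than leaving out chromosome 14, the exception being 31 without SARAF-WT replicate 1, where Psmc4 passed. A minimum mean of 50 left 35 members, without Psmb11. Leaving out the members on chromosome 14 also gave 30, but took the count of members called lower from 1 to 0, since Psmc6 lies there. The median log2 change ran from 0.21 to 0.24 when each library was left out in turn and was 0.23 with scaling to total reads. Over single members, 572 of 575 values kept their direction and side of the threshold. Psmc3ip, which did not pass, changed sign without SARAF-KO replicate 2 (-0.0183) and without SARAF-WT replicate 1 (-0.0153), in a range from -0.0183 to 0.0499 over the libraries left out. With the replicate block limma called 30 members higher, 1 lower and 7801 of all genes, against 7864 without it. Deviations of libraries with the same number had correlations of -0.05 to -0.01, and no library correlated best with its own number, so the numbers were not taken as pairs. Among members, the smallest change that passed was the 9.04% of Psma6. Over all settings, 6423 (threshold of 0.01) to 7926 (edgeR) of all genes were called.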
